A study of Mus musculus with 8 samples.

Results

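The 33 genes described here encode glucose and lactate transporters, the glycolytic enzymes, kinases that set glycolytic flux, and genes known to respond to low oxygen. They were taken by symbol from the 39017 genes of the deposited table, and all 33 were found and passed the filter on low values (a mean of at least 10 normalized counts). RNA-seq was done on induced germinal center-like B cells (iGBs), which are splenic B cells grown on 40LB feeder cells, a fibroblast line that expresses CD40L and BAFF, with IL-4 at 1 ng/mL. Prmt5-null iGBs came from Prmt5 F/F Cγ1-cre mice (4 libraries, 10617, 10618, 10770 and 10771). Control iGBs came from Cγ1-cre mice (4 libraries, CTRL-10650 first, then CTRL-10370, CTRL-10596 and CTRL-10597), so both genotypes carried the Cre. The study states that its control mice were Prmt5 +/+. The mice were on a C57BL6/J background and were 2 to 4 months old, and on day 4 the B cells were taken off the feeder layer by elutriation. Cγ1-cre is switched on when B cells are activated, so the deletion of Prmt5, the main enzyme for symmetric dimethylation of arginine, takes place in activated B cells. The normalized count used throughout is the read count of a gene divided by the size factor of its library. Values per library are listed in the order of library numbers just given.

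Glycolysis splits glucose into pyruvate. Glucose enters through GLUT transporters, hexokinase and phosphofructokinase commit it to the pathway, and the lower enzymes recover ATP and NADH. B cells activated in culture are known to raise glycolysis. HIF-1 is a transcription factor whose alpha subunit, Hif1a, is marked for destruction by prolyl hydroxylases such as Egln1 when oxygen is present. In low oxygen it induces many glycolytic genes, as well as Bnip3, Vegfa, P4ha1 and others. As HIF-1 is regulated through the stability of its alpha subunit protein, the Hif1a transcript does not report its activity.

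Prmt5 itself had 1291, 1994, 1060 and 1808 normalized counts in the Prmt5-null libraries and 13087, 11084, 11657 and 11267 in the controls. Library depth was 36731721 to 50366174 reads on genes. Markers of B cells summed to 335077 to 392156 normalized counts in Prmt5-null and 368723 to 416342 in control libraries. Of 10 such markers, 2 were past the adjusted threshold, an adjusted p below 0.05 (Cd79a, lower, and Fas, higher). Across all genes tested, 6.51% were higher and 7.33% lower at that threshold. Fibroblast markers, which a remnant of the feeder layer would carry, summed to 13499.8, 7876, 11083 and 9660 in Prmt5-null and 9098, 5282, 6417 and 7619 in control libraries. The 13 of 15 that were tested all had log2 fold changes above 0. Of these, 3 were past the adjusted threshold with limma, 4 with edgeR and 6 with DESeq2. T cell markers summed to at most 288 (Cd3e was at 0) and myeloid markers to at most 918 in a library, with 1 of 4 tested past the adjusted threshold (Emr1, higher). Plasma cell markers summed to 37685 to 45352 in Prmt5-null and 41182 to 58366 in controls, with 2 of 5 past it (Xbp1 and Prdm1, both lower). The rest did not pass and were mixed, with log2 fold changes of 0.19 for Irf4, 0.16 for Sdc1 and -0.57 for Igj. The part of these marker shifts in the results was not tested. The design of the series places 2 samples of each genotype in each of 2 experiments by sample number, but no label ties a number to a library, so a term for the experiment was fitted over all 18 possible placements. In 1 of these, singled out after the data were seen, libraries 10617, 10618, CTRL-10596 and CTRL-10597 share an experiment. It is the split along the second principal component, and also the split that sample numbers in order of deposit would give, which no label states.

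Many of the 33 genes are known HIF-1 targets, and the letters of the HIF-1 motif were more common in their promoters than in those of all genes. RefSeq promoter sequence on GRCm38.p6 was at hand for 29 of the 33 genes, at 42 start sites. In the 250 bases before the start site, ACGTG, the core of the element that HIF-1 binds, was found on either strand at 21 of 42 sites (50%), against 16.6% of the 32851 start sites of all genes. By gene, 18 of 29 (62.1%) had it at a start site, against 18.5% of 27025 genes. With GCGTG counted too, these shares were 26 of 29 (89.7%) and 41.5%. An ACGTG match can overlap the palindrome CACGTG, which Myc and related factors bind and which counts as 2 matches; CACGTG was found in 5 of 29 genes (17.2%), against 6.86% of all genes. These are matches of letters, and binding was not measured. The promoters of all genes were not matched to those of the 33 for base composition or expression. The promoters of 4 genes described below are shown because they hold these letters in different arrangements, with both motifs and their reverse complements in capitals, 5′ to 3′ along the gene.

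Slc16a1 (chr3:104638414-104638663, plus strand): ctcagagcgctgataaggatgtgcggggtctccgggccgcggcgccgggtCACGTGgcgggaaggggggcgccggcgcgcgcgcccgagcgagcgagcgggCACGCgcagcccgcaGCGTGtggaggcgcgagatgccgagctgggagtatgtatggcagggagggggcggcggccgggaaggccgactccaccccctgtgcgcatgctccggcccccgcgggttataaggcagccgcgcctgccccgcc
Hk2 (chr6:82774455-82774704, minus strand): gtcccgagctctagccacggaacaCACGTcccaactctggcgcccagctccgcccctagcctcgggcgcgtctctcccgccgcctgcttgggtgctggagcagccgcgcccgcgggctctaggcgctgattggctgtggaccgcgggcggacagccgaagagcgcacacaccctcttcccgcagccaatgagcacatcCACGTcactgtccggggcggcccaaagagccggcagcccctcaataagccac
Pgk1 (chrX:106186850-106187099, plus strand): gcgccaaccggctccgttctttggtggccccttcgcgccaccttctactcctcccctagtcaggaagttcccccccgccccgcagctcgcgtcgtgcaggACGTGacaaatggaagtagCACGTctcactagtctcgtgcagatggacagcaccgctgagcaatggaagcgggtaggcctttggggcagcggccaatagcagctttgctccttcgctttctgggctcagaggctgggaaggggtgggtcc
Aldoa (chr7:126799255-126799504, minus strand, the second of its start sites): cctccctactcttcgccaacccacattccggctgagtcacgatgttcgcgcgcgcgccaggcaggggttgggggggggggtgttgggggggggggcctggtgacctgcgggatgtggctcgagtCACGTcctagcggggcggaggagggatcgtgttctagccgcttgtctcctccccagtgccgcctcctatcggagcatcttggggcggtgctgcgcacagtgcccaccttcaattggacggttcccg

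Slc16a1 held 1 CACGTG and 2 further GCGTG matches, Hk2 and Pgk1 each held 2 separate ACGTG matches, and Aldoa held 1. No match was found before the Eno2, Tpi1 and Gpi1 start sites.

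Few of the 33 genes differed between genotypes beyond the spread of the libraries. In limma's test across 16250 genes with Benjamini-Hochberg adjustment, 1 gene rose at an adjusted p below 0.05 (Eno2) and 1 fell (Slc16a1). Across all genes tested, 6.51% rose and 7.33% fell at that threshold. With DESeq2, and with quantile normalization, 4 of the 33 passed, so the count of 2 is not read as fewer than among all genes. With a change of at least 1.5-fold required as well, only Eno2 was called, while 3.49% of all genes were called higher and 2.99% lower. The libraries of the genotypes did not overlap for 2 genes, Eno2 and Slc16a1, against 19.8% of all genes tested. Unadjusted, 8 of 33 had a p below 0.05, against 4755 of 16250. The direction was uneven. Log2 fold changes (Prmt5-null against control) were below 0 for 26 of 33 genes (78.8%), against 49.6% of all genes tested, and their median was -0.22, against 0.00. Without Prmt5-null 10618 these values were 19 of 33 and -0.04. Eno2 and Slc16a1 also passed in all 18 placements of the libraries in 2 experiments, but neither passed with no trend in limma's fit. Each had an exact 2-sided permutation p of 0.0286, the smallest that 4 libraries against 4 can give. Any gene whose libraries do not overlap has this p, as do 19.8% of all genes tested, so it adds no further support.

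**Figure D1:**
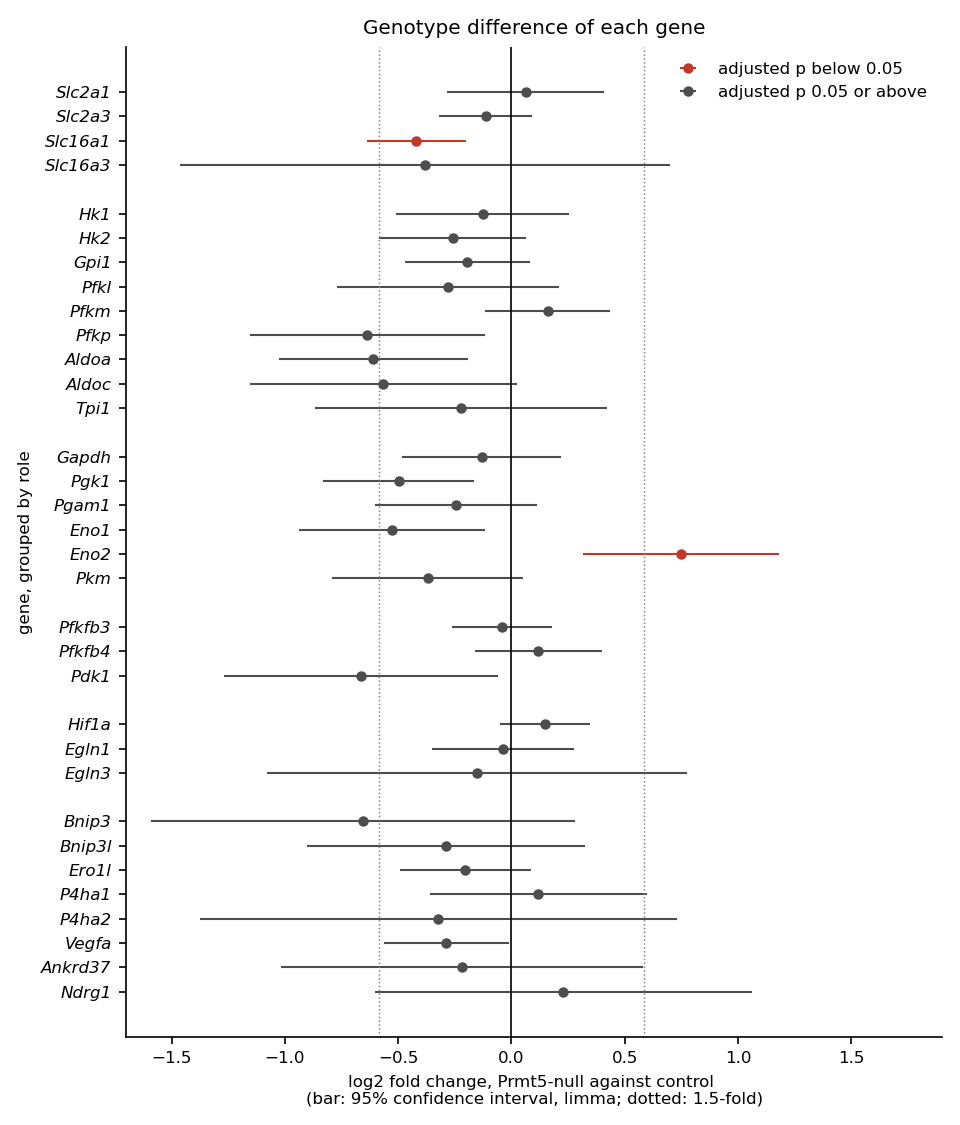
Log2 fold change of each of the 33 genes, Prmt5-null against control, on the horizontal axis, with genes grouped by role on the vertical axis. Points are limma estimates from 4 libraries per genotype, bars their 95% confidence intervals, and dotted lines a 1.5-fold change. Eno2 at 0.75 and Slc16a1 at -0.42 are the only genes in red, past the adjusted threshold, and the widest intervals belong to Slc16a3, P4ha2, Bnip3 and Egln3.

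Among the 4 transporters, a lactate carrier fell and the other 3 did not pass. Slc16a1 (chr3:104638668-104658462, plus strand, GRCm38) encodes MCT1, which moves lactate and pyruvate across the membrane. It had 5756, 5036, 7003 and 5476 normalized counts in Prmt5-null and 8006, 8122, 7009 and 7804 in control iGBs. The highest Prmt5-null library lay just under the lowest control, 7003 against 7009, and the other 3 were well below. Slc16a1 fell by 0.42 on the log2 scale (95% confidence interval -0.64 to -0.20, adjusted p = 0.0161, limma). The adjusted p rose to 0.0564 when Prmt5-null 10771 was left out and stayed below 0.05 on leaving out any of the other 7 libraries. It was 0.0526 with no trend in limma's fit.

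Slc16a3, which encodes the lactate exporter MCT4, had 2584, 429.8, 2834 and 1399 in Prmt5-null and 2468, 2609, 1848 and 1071 in controls. The lowest and the highest of the 8 libraries were both Prmt5-null, 6.59-fold apart, and the log2 fold change was -0.38 (-1.46 to 0.70, adjusted p = 0.654). The glucose transporters lay within 1.5-fold of control. Slc2a1 (GLUT1) had 3012 ± 527 normalized counts in Prmt5-null and 2901 ± 662 in control iGBs (SD, n = 4 each), and Slc2a3 (GLUT3) had 3541 ± 421 and 3815 ± 261. Their 95% confidence intervals, -0.28 to 0.41 and -0.32 to 0.09 on the log2 scale, do not reach 1.5-fold in either direction.

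None of the 9 enzymes that take glucose to triose phosphate passed the adjusted threshold, and 8 of 9 had log2 fold changes below 0 (median -0.26). Aldoa (chr7:126795234-126800751, minus strand), the main aldolase, had 54350.2, 30299, 58144 and 39239.9 normalized counts in Prmt5-null and 72381, 79573, 54115 and 65375 in control libraries. Only CTRL-10596 lay within the Prmt5-null range. Its log2 fold change was -0.61 (-1.03 to -0.19, adjusted p = 0.0536), and the adjusted p was 0.0167 with DESeq2 and 0.0655 with edgeR on the recovered reads. With the experiment term it passed in 5 of 18 placements, and in the one along the second principal component the adjusted p was 0.0279. Pfkp, the platelet type of phosphofructokinase, had 5789, 2396, 5575 and 3195 in Prmt5-null and 6146, 7366, 5685 and 5606 in controls. Prmt5-null 10618 and 10771 lay far below every control and the other 2 close to the lowest controls, which gave -0.64 (-1.16 to -0.12, adjusted p = 0.0993).

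Isozymes of a step did not share 1 level. Per kilobase of exonic length, the liver type Pfkl had 1697 ± 232 normalized counts in controls (SD, n = 4), Pfkp 463 ± 60.6 and the muscle type Pfkm 223 ± 26.9, with no overlap between the 3. This length joins all annotated exons of a gene, used in these cells or not (6675 bases for Pfkl, 13401 for Pfkp and 3340 for Pfkm). Undivided, the control means were 11327, 6201 and 746, in the same order but with other ratios. Pfkm was the enzyme of this group with a log2 fold change above 0 (0.16, adjusted p = 0.438). Hk2, the inducible hexokinase, had 1126 ± 189 per kilobase and Hk1 354 ± 33.6 in controls, and their log2 fold changes were -0.26 and -0.13. Hk2 ranged from 4546 to 6704 in Prmt5-null and 5787 to 8186 in control libraries, and Hk1 from 1913 to 3748 in Prmt5-null and 2682 to 3377 in control libraries, with the lowest of the 8 libraries in Prmt5-null both times. Aldoc, the minor aldolase, had 2129, 898, 2025 and 1150.0 normalized counts in Prmt5-null and 1841, 2839, 1559.8 and 2628 in controls (-0.57, adjusted p = 0.188). Gpi1, Pfkl and Tpi1, which encode glucose-6-phosphate isomerase, phosphofructokinase and triose phosphate isomerase, had log2 fold changes of -0.19, -0.28 and -0.22. Pfkl ranged from 5596 to 12830.1 in Prmt5-null and 10046 to 13545 in control libraries, and Gpi1 from 16674 to 24561 in Prmt5-null and 20956 to 27070.2 in control libraries. For Tpi1 the 4 Prmt5-null libraries ran from 16419 to 51252 normalized counts and the controls from 27592 to 47375, so the controls lay inside the Prmt5-null range.

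Among the enzymes from triose phosphate to pyruvate, a minor enolase rose while 5 of 6 genes had log2 fold changes below 0. Eno2 (chr6:124760053-124769673, minus strand) encodes the gamma enolase, best known from neurons. It had 286, 359, 314 and 333 normalized counts in Prmt5-null and 168, 264, 229 and 132 in control iGBs. All 4 Prmt5-null values exceeded all 4 control values, and here the controls were the more spread group. Its log2 fold change was 0.75 (0.32 to 1.18, adjusted p = 0.0274), or 1.68-fold. The adjusted p exceeded 0.05 when Prmt5-null 10618 or 10771 or CTRL-10650 or CTRL-10597 was left out, up to 0.0742. Eno2 also did not pass with no trend in limma's fit. Eno2 stayed far below Eno1 per kilobase, at 68.6 ± 6.56 in Prmt5-null against 1655 ± 481 for Eno1 (SD, n = 4 each).

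Eno1, the enolase most cells use, had 10543, 5524, 11262 and 8275 in Prmt5-null and 13931, 13542, 10507 and 11874 in controls (-0.53, -0.94 to -0.12, adjusted p = 0.084). It passed in 4 of 18 placements of the experiments, with an adjusted p of 0.0428 in the one along the second principal component. Pgk1 (chrX:106187100-106203699, plus strand), phosphoglycerate kinase, had 5642, 4238, 7673 and 5285 in Prmt5-null and 8125, 9270.4, 7166 and 7148 in controls. Of its Prmt5-null libraries, 10770 alone lay among the controls. Its log2 fold change was -0.50 (-0.83 to -0.16) with an adjusted p of 0.0502, at the edge of the threshold, and leaving out a library each gave 0.00331 (without Prmt5-null 10770) to 0.125. The adjusted p was 0.0255 with DESeq2, 0.0472 with TMM scaling, 0.0482 with quantile normalization and 0.0492 with a pseudocount of 5, but 0.0617 with edgeR and 0.120 with no trend. With the experiment term Pgk1 passed in 8 of 18 placements (0.0138 in the one along the second principal component). Pkm, pyruvate kinase, ran from 57784 to 118279 normalized counts in Prmt5-null and from 94624 to 129100.0 in controls (-0.37, adjusted p = 0.229). Pgam1, phosphoglycerate mutase, ranged from 4041 to 6972 in Prmt5-null and 5523 to 7775 in control libraries (-0.25, adjusted p = 0.353).

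Gapdh was the odd gene of the pathway in level. It had 1209.7 ± 292 normalized counts in controls and 1079 ± 84.5 in Prmt5-null iGBs (SD, n = 4 each), or 293 ± 70.7 per kilobase in controls, where Pgk1 had 3533 ± 448 and Tpi1 13159.6 ± 2981. Only uniquely mapped reads were counted. Of the stretches of 100 bases in coding Gapdh transcripts, 53.1% also occur in transcripts of 86 other annotated genes. The same share was 67.0% for Pgk1, 39.7% for Pgam1, 39.5% for Eno1, 31.6% for Bnip3, 16.4% for Bnip3l and 14.2% for Pfkp. The levels of these 7 genes are uncertain for that reason. The part of shared sequence in the low Gapdh level was not tested, and Pgk1, with the larger share, had the higher level. The share was 0 for 17 of 33 genes, Eno2, Slc16a1 and Aldoa among them. Exons of 12 of the 33 genes overlap a gene on the other strand, and as the strand setting of the counting is not given in the sources used here, reads of the partners cannot be told apart. Aldoa (Fam57b), Bnip3, Gapdh and Pfkp are among these, and Eno2, Slc16a1 and Pgk1 are not.

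Levels per kilobase spanned a wide range in control iGBs, and their ranking depends on the length of all annotated exons by which counts were divided. Aldoa (23312 ± 3725) and Pkm (21722 ± 2913) were highest and did not differ beyond their spread, followed by Tpi1 (13159.6 ± 2981). Gpi1 (3756 ± 406), Pgk1 (3533 ± 448) and Pgam1 (3374 ± 476) came next and overlapped each other. The lowest were P4ha2 (9.29 ± 3.71), Egln3 (22.0 ± 8.28), Eno2 (42.1 ± 12.7) and Ndrg1 (51.9 ± 11.3).

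Of the 3 kinases that set flux, Pdk1 had the lowest log2 fold change of all 33 genes but did not pass. Pdk1 inhibits pyruvate dehydrogenase and so keeps pyruvate out of mitochondria. It had 5526, 2086, 5168 and 2736 normalized counts in Prmt5-null and 5258, 7827, 4716 and 5280.2 in control iGBs. Prmt5-null 10618 and 10771 lay under all controls, and 10617 and 10770 lay among them. The log2 fold change was -0.66 (-1.27 to -0.06, adjusted p = 0.137). Pfkfb3 and Pfkfb4, which make the activator of phosphofructokinase, had log2 fold changes of -0.04 (-0.26 to 0.18) and 0.12 (-0.16 to 0.40), intervals that stay within 1.5-fold. Pfkfb3 ranged from 1421 to 1718 in Prmt5-null and 1415 to 1879 in control libraries, and 10618 was not the lowest of its 4 libraries in either gene.

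**Figure D2:**
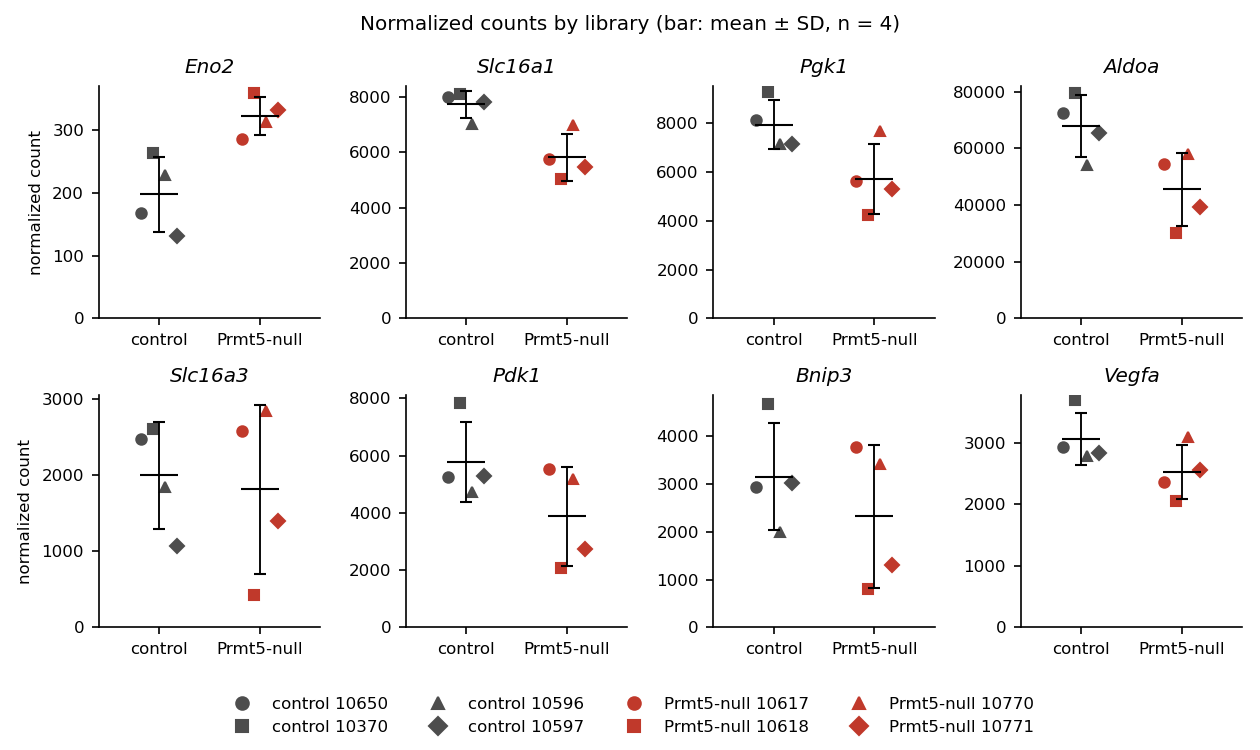
Normalized counts of 8 of the 33 genes in each library (vertical axes from 0, 1 panel per gene), with control libraries in grey and Prmt5-null libraries in red, a symbol for each library, and black bars for the mean ± SD (n = 4). Eno2 and Slc16a1 are the panels in which the genotypes do not overlap, and in Slc16a3, Pdk1 and Bnip3 the Prmt5-null libraries split, with 10618 lowest and 10771 next.

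The HIF subunit and its 2 oxygen sensors did not pass the adjusted threshold. Hif1a had 6937, 8975, 7149 and 8205 normalized counts in Prmt5-null and 7223, 6777, 6676 and 7414 in control libraries. Its log2 fold change was 0.15 (-0.05 to 0.34, adjusted p = 0.303), and here the library with the lowest levels of most of the 33 genes, 10618, was the highest. Egln1, the main HIF prolyl hydroxylase, ranged from 2276 to 3781 in Prmt5-null and 2809 to 3577 in control libraries, with a log2 fold change of -0.04 (-0.35 to 0.28). Egln3, a prolyl hydroxylase that HIF-1 itself induces, was rare, at 72.2, 18.4, 77.9 and 59.8 in Prmt5-null and 86.2, 44.6, 37.6 and 66.4 in controls, and its interval of -1.08 to 0.78 holds a 1.5-fold change in either direction, so a difference of that size was not detectable at this depth and number of libraries.

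None of the 8 other hypoxia-induced genes passed, and several spread widely. Bnip3, which drives removal of mitochondria, had 3770.1, 804, 3421 and 1296 normalized counts in Prmt5-null and 2941, 4668, 1995 and 3022 in control iGBs (-0.66, -1.59 to 0.28, adjusted p = 0.342). Its relative Bnip3l ranged from 2841 to 6269 in Prmt5-null and from 3379 to 7434 in controls. Vegfa, the angiogenic growth factor, had 2371, 2062, 3102 and 2555 in Prmt5-null and 2938, 3695, 2787 and 2837 in controls (-0.29, adjusted p = 0.156), with CTRL-10370 standing above the other 7 libraries. P4ha1 and P4ha2, the collagen prolyl hydroxylase subunits, had log2 fold changes of 0.12 and -0.32. P4ha1 ranged from 2441 to 5739.9 in Prmt5-null and 2973 to 4346 in control libraries and the rare P4ha2 from 15.3 to 91.7 in Prmt5-null and 36.6 to 83.8 in control libraries, so the Prmt5-null libraries enclosed the controls in both. Ero1l, the oxidase of the endoplasmic reticulum, ranged from 3766 to 6231 in Prmt5-null and 5084 to 6029 in control libraries (-0.20, adjusted p = 0.336).

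Ankrd37, a HIF-1 target of unclear role, had 328, 346, 885 and 975 in Prmt5-null and 834, 811, 709.6 and 373 in controls. Here 10617 was low with 10618, unlike in most of the other genes. Ndrg1, a stress-responsive gene, had 821, 167, 539.9 and 323 in Prmt5-null and 386, 419.9, 254 and 308 in controls. Its Prmt5-null values enclosed those of all controls, and the log2 fold change of 0.23 had an interval of -0.60 to 1.06.

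The spread between libraries was larger in Prmt5-null than in control iGBs. The SD of log2(normalized count + 1) over 4 libraries was larger in Prmt5-null for 28 of 33 genes (84.8%), against 60.1% of all genes tested. The median SD of the 33 genes was 0.44 in Prmt5-null and 0.21 in control libraries, and that of all genes 0.20 and 0.16. The largest were Slc16a3 (1.25 against 0.59), P4ha2 (1.12 against 0.58), Bnip3 (1.09 against 0.50), Ndrg1 (0.99 against 0.33) and Egln3 (0.95 against 0.53). Slc2a1, Gapdh, Eno2, Pfkfb3 and Pfkfb4 had the larger SD in controls. Without Prmt5-null 10618 the count was 25 of 33, against 54.5% of all genes, and the median SD in Prmt5-null was 0.28. Genes of a pathway are not independent of each other, so these counts describe the list and were not tested.

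**Figure D3:**
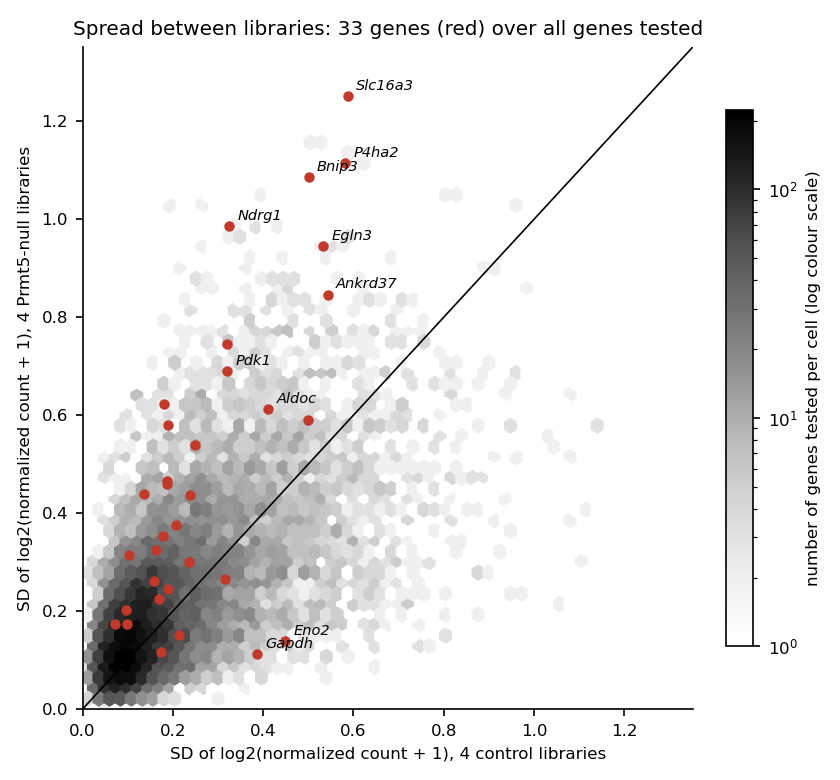
SD of log2(normalized count + 1) over the 4 control libraries (horizontal axis) and the 4 Prmt5-null libraries (vertical axis). Red points are the 33 genes, grey cells all 16250 genes tested with a log colour scale for the number per cell, and the line marks equal SD. The red points lie above the line for 28 of 33 genes, with Slc16a3 highest at 1.25.

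Prmt5-null 10618 stood apart within this spread. It had the lowest of the 4 Prmt5-null values in 28 of 33 genes, while it was lowest in 29.1% of all genes tested. Relative to the control mean, its median over the 33 genes was -0.72 on the log2 scale, and 10771 followed at -0.31, while 10617 was at 0.05 and 10770 at 0.07. Below the control mean were 30 of 33 genes in 10618, 24 in 10771, 15 in 10617 and 11 in 10770, against 49.5% to 49.9% of all genes tested. The exceptions in 10618 were Eno2, Pfkfb4 and Hif1a, which were the highest of the 4 there. Among controls, CTRL-10370 was highest in 22 of 33 genes, CTRL-10596 lowest in 19 and CTRL-10597 lowest in 10.

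Other values also set 10618 and 10771 apart from 10617 and 10770. The fibroblast marker sum was lowest in 10618 (7876) and next in 10771 (9660), and higher in 10770 (11083) and 10617 (13499.8). Residual Prmt5 was highest in 10618 (1994) and 10771 (1808) and lower in 10617 (1291) and 10770 (1060). Plasma cell marker sums were 45352 in 10618 and 43008 in 10771, against 40893 in 10617 and 37685 in 10770. B cell marker sums were 392156 and 359056 in the former pair and 347925 and 335077 in the latter, and myeloid sums 918 and 771 against 696 and 723. T cell sums did not separate the pairs, at 194 and 146 against 166 and 87.6. Among controls, CTRL-10370, with the highest levels of most of the 33 genes, had the lowest fibroblast sum (5282) and the lowest plasma cell sum (41182), and CTRL-10596, most often the lowest, had the highest plasma cell sum (58366). The part of these values in the results was not tested. In bulk samples, fewer cells with a transcript and less of it per cell cannot be told apart. Depth was 42752293 reads in 10618, 43242655 in 10770, 46749607 in 10771 and 47174851 in 10617, and its part was not tested either.

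**Figure D4:**
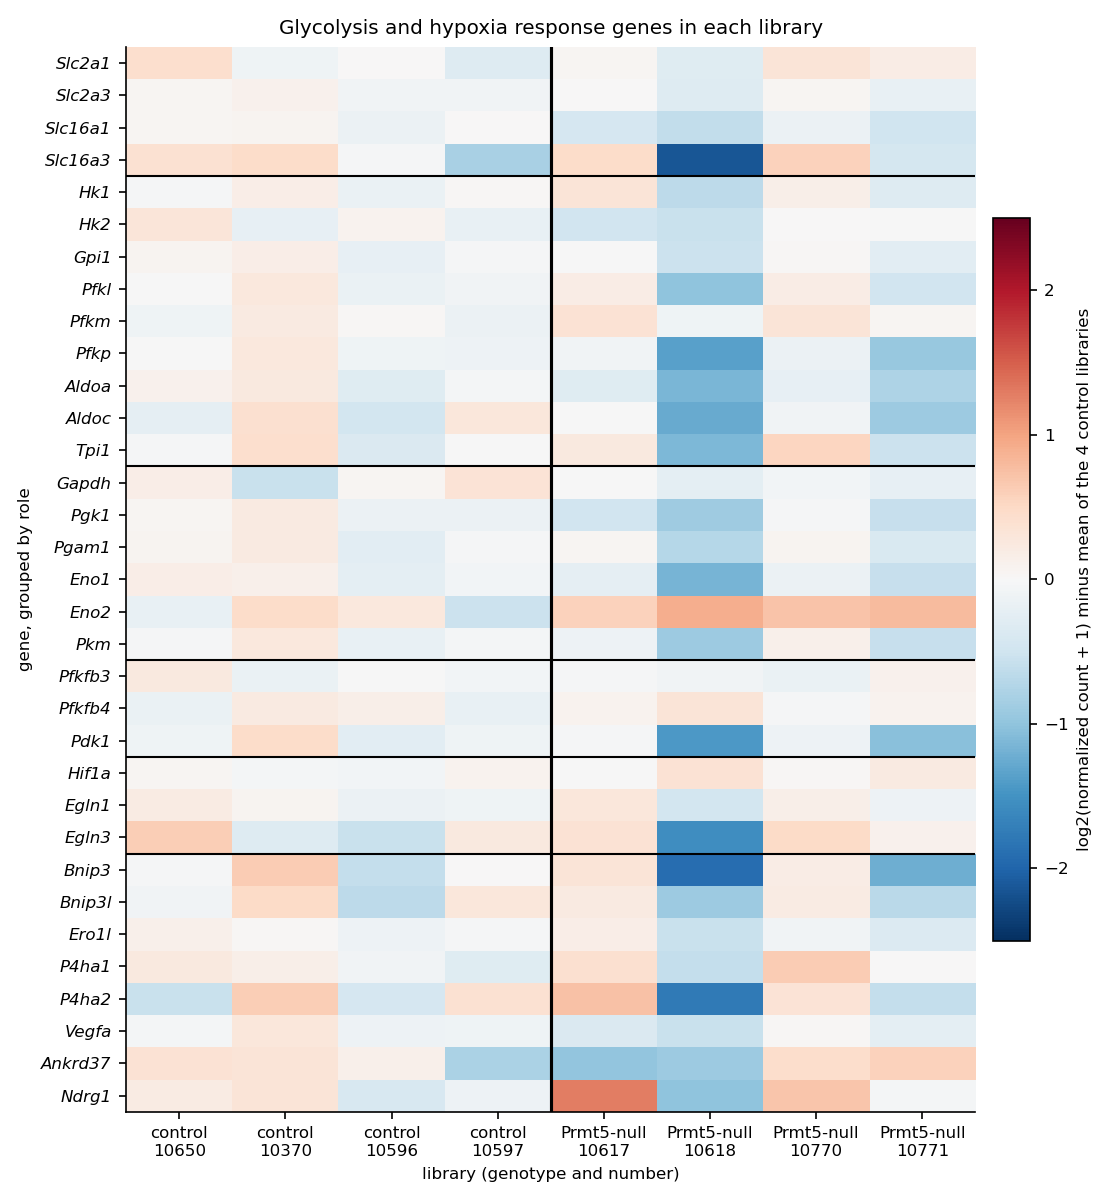
Level of each of the 33 genes (rows, grouped by role) in each library (columns, 4 control then 4 Prmt5-null), as log2(normalized count + 1) minus the mean of the 4 control libraries; blue is below and red above that mean. Prmt5-null 10618 is blue in 30 of 33 rows, reaching -2.13 for Slc16a3, 10771 in 24, and the Eno2 row is red in all 4 Prmt5-null libraries.

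The genes were also looked up among the deposited splicing events, which give inclusion levels (the share of transcripts that hold an exon) as 4 values per genotype without library names. The authors kept the event with the lowest p per gene and type of event, above a minimum difference in inclusion level, and only in genes with a mean above 50, so a difference between genotypes is what put an event on the list, and it is described here without a test. Of the 33 genes 7 (21.2%) had an event, against 11.4% of genes with a mean above 50, with 9 events in all. The lists of the genotypes did not overlap for 4 of the 9, those in P4ha1 and Slc16a3 among them, against 50.8% of the 1918 deposited events, and 7 events in 6 genes are shown here.

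In P4ha1, a pair of mutually exclusive exons of 71 bases each lies in the coding sequence (GRCm38). The level of the first, which rMATS counts as included on the plus strand, was 0.443, 0.487, 0.427 and 0.423 in control and 0.374, 0.343, 0.344 and 0.271 in Prmt5-null iGBs, from 2602 reads in all. The exons differ at 29 of 71 positions (59.2% identical) and are shown with differing bases in capitals, each 5′ to 3′.

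P4ha1, the first exon of the pair (chr10:59354340-59354410, plus strand): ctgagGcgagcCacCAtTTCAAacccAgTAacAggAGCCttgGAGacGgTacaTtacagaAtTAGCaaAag
P4ha1, the second exon of the pair (chr10:59355350-59355420, plus strand): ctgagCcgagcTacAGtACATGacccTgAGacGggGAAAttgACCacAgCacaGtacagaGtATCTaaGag

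In Slc16a3, an exon of 95 bases (chr11:120954174-120954268) had levels of 0.853, 0.765, 0.754 and 0.675 in control and 0.656, 0.531, 0.597 and 0.594 in Prmt5-null iGBs. This exon does not lie wholly within a single annotated coding segment, and whether part of it is coding was not checked. The least covered library gave 18 reads. In Aldoa, an exon of 153 bases (chr7:126797974-126798126), also not wholly within a single coding segment, had levels of 0.755 to 0.798 in control and 0.443 to 0.773 in Prmt5-null iGBs, which overlap. In Pfkfb3, a coding exon of 87 bases (chr2:11481247-11481333) had the higher levels in Prmt5-null, at 0.194 to 0.346 against 0.073 to 0.204 in control iGBs, on 291 reads. The events in Eno2 (39 reads) and Pgk1 (24 reads each) rest on too few reads to be described.

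**Figure D5:**
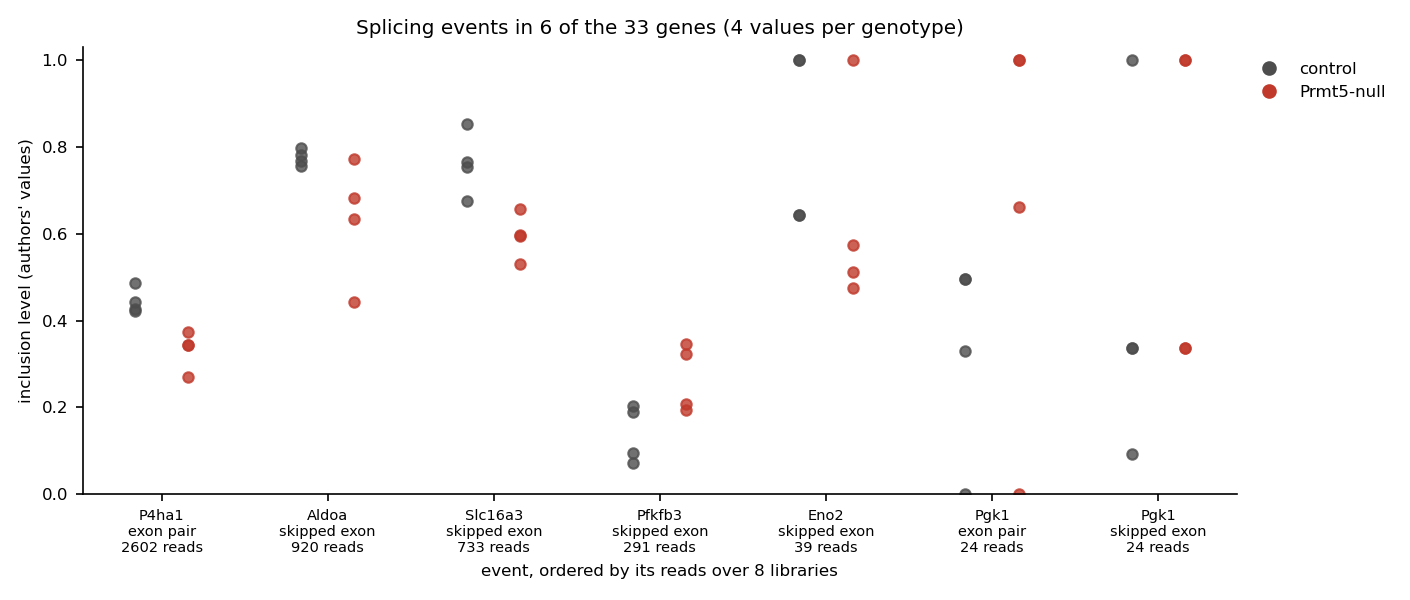
Deposited inclusion levels (vertical axis, 0 to 1) for 7 splicing events listed in 6 of the 33 genes, ordered by the reads behind them (number under each name). Each point is 1 of 4 values per genotype, grey for control and red for Prmt5-null; the P4ha1 exon pair is at 0.423 to 0.487 in control and 0.271 to 0.374 in Prmt5-null, and the Eno2 and Pgk1 events on the right rest on 39 reads or fewer.

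Other genes of these pathways, taken from lists written from general knowledge, were counted in the same fit, in which 6.51% of all genes rose and 7.33% fell at an adjusted p below 0.05. Of 14 other glycolysis genes tested, 0 rose and 2 fell at that threshold (limma), while 4 had an unadjusted p below 0.05, and edgeR and DESeq2 on the recovered reads gave the same counts of 0 and 2. The 2 were Slc2a6, a hexose transporter (2358, 2115, 1904 and 1594 in Prmt5-null and 2849.9, 2993, 3153 and 3469.6 in control libraries, -0.66, adjusted p = 0.00334), and Adpgk, the ADP-dependent glucokinase (-0.44, adjusted p = 0.00294). Of 7 pentose phosphate genes 2 fell, beside the 7.33% of all genes. G6pdx, which commits glucose 6-phosphate to that pathway, had 2062, 1609, 1497 and 1783 in Prmt5-null and 3124, 2528, 2539.9 and 2718 in control iGBs (-0.66, adjusted p = 0.00228), with a clear gap between the genotypes. Rpia, ribose-5-phosphate isomerase, fell by 0.30 on the log2 scale (adjusted p = 0.0153).

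Among 14 tested genes of pyruvate fate, Ldhb, a lactate dehydrogenase subunit, was the 1 past the threshold (2.72, adjusted p = 3.94e-05). Ldhb was rare, at 121 to 223 normalized counts in Prmt5-null and 21.3 to 30.2 in control libraries. The other subunit, Ldha, had 51698 to 75633 in control libraries and a log2 fold change of -0.44 (adjusted p = 0.184). The part of feeder cells in the Ldhb value was not tested. Of 30 other hypoxia-induced genes tested, 2 rose and 1 fell, and with DESeq2 3 rose and 4 fell. Unadjusted, 15 of the 30 had a p below 0.05, against 4755 of all 16250 genes. Plod2, a collagen lysyl hydroxylase, rose by 0.89 (adjusted p = 0.00168), Adm, the adrenomedullin precursor, by 0.30 (adjusted p = 0.0386), and Stc2, stanniocalcin 2, fell by 1.80 on the log2 scale (adjusted p = 0.0423) at 5.56 to 91.6 normalized counts. Plod2 is a gene that fibroblasts also express, and the fibroblast marker sums given above ran from 7876 to 13499.8 in Prmt5-null and from 5282 to 9098 in control libraries. The part of those cells in its value was not tested. Of 10 other HIF pathway genes tested, 0 passed with limma, edgeR or DESeq2, and 0 had an unadjusted p below 0.05 with limma (1 with edgeR).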

How the data were processed

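RNA-seq was measured in 4 Prmt5-null and 4 control iGB libraries. The authors trimmed reads with Trimmomatic 0.32, aligned them with STAR 2.3.0e to GRCm38 (mm10), counted uniquely mapped reads on exons with featureCounts 1.4.4, and deposited each count divided by the DESeq2 1.14.1 size factor of its library as a normalized signal. Every value in the table (100% per library, tolerance 0.001) was a whole number of reads on rescaling, which gave the depths. The authors also deposited rMATS splicing events with inclusion levels, read counts, p-values and differences. The last 2 were not used, and 2 events of 1 gene are not reported here. The genotype of each list of 4 was taken from the study's description, and the Prmt5 exon removed by Cre was at 0.989 to 1.00 in the first list and 0.027 to 0.304 in the second.

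Genotypes were compared in R 4.3.3 with limma 3.58.1 (eBayes with a trend) on log2(normalized count + 1) for genes with a mean of at least 10 (fold changes of low genes are therefore understated). Calls needed both a Benjamini-Hochberg adjusted p below 0.05 and a 1.5-fold difference. The 33 genes and the other lists were chosen with earlier results of these data known. All 33 are reported; of other lists, at most the 5 largest changes past the adjusted threshold are named. Each library was labelled as an independent biological sample, and groups came from the labels. edgeR 4.0.16 and DESeq2 1.42.0 on the recovered reads, other scalings, filters and thresholds, leaving out each library and an experiment term were tried as alternatives, and the test was checked on simulated counts. There, 36 of 100 genes changed 1.5-fold and 85 of 100 changed 2-fold reached an adjusted p below 0.05. The simulated spread was not taken from the 33 genes. Many changes of 1.5-fold can therefore be missed. Depth was 36731721 to 50366174 reads on genes per library, and counting error weighs most on rare genes such as Egln3 and P4ha2. Coordinates and exon sequences are from GENCODE on GRCm38, promoters from RefSeq on GRCm38.p6. Python 3.11.15 and matplotlib 3.10.9 were used for annotation and figures.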

Additional observations from a re-analysis of the deposited data

Results flagged for a closer look

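Vegfa in CTRL-10370 stood at 3695 normalized counts, while the other 3 control libraries lay between 2787 and 2938. Its gap to the nearest library was 0.834 of the range of the group, above the 95% critical value of the Dixon test for 4 samples. It was the 1 such case in 66 groups of 4 (33 genes in each genotype), and chance flags about 1 group in 20. Without this library the log2 fold change of Vegfa was -0.19.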

How the results depend on the processing

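The median of the 33 genes, the count below 0 and the count with the larger SD in Prmt5-null kept their direction under every alternative run, from -0.36 to -0.04, from 19 to 28 and from 25 to 29 of 33 on leaving out a library each, with 19, 25 and -0.04 all reached without Prmt5-null 10618. Counts of genes past a threshold moved more. With 1 gene called and 2 past the adjusted p alone in the test as reported, quantile normalization gave 2 and 4, no trend 0 and 0, DESeq2 1 and 4, an adjusted p below 0.01 0 and 0 (of 637 genes called in all, 341 higher and 296 lower), and the experiment term over 18 placements up to 4 and 8. The placement along the second principal component, chosen after the data were seen, gave 2 (Aldoa and Eno2) and 5 (with Slc16a1, Pgk1 and Eno1). It is also the placement that the sample numbers of the design would give in order of deposit, which no label states. Leaving out a library gave 0 to 5 called, with 5 without Prmt5-null 10770 (Pfkp, Aldoa, Pgk1, Eno1 and Eno2), 3 without 10617 (Pfkp, Aldoa and Eno2) and 0 without 10618, 10771, CTRL-10650 or CTRL-10597, and 0 to 8 past the adjusted p alone, with 0 without 10771 and 8 without 10770. All genes called ran from 795 to 1173. The cause was not tested.

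Log2 fold changes that changed sign on leaving out a library ranged from -0.047 to 0.20 for Slc2a1, -0.71 to 0.20 for Slc16a3, -0.28 to 0.047 for Hk1, -0.47 to 0.074 for Tpi1, -0.10 to 0.040 for Pfkfb3, -0.14 to 0.10 for Egln1, -0.36 to 0.32 for Egln3, -0.056 to 0.36 for P4ha1, -0.68 to 0.16 for P4ha2, -0.48 to 0.039 for Ankrd37 and -0.12 to 0.64 for Ndrg1, none of them past the threshold in any of these fits. No paired analysis was possible because the library numbers of the genotypes differ and no label ties a library to a sample number of the design. Beside these counts of 0, 8 of the 33 genes had an unadjusted p below 0.05 in limma's test as reported, and edgeR and DESeq2 each called 1.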
